A study of Mus musculus with 12 samples.

Results

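The interferon response and antigen presentation genes of mIMCD3 cells were followed across 3 genotypes: wild-type cells (Wt), Pkd1-/- cells and Pkd2-/- cells. The module is a list of 46 named mouse genes out of 47642 genes in the deposited table. The list is of gene names, with no threshold on a measured value, and each name was matched to its Ensembl identifier. They comprise 2 subunits of the type I interferon receptor, 2 of the type II receptor, 6 transcription factors, 4 nucleic acid sensing genes, 14 interferon-stimulated antiviral genes, 3 guanylate-binding proteins, 4 class I genes, 6 peptide supply genes, 2 transactivators and 3 class II genes.

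mIMCD3 is a line of inner medullary collecting duct cells from mice that carry the early region of SV40, which keeps the cells dividing, and all 3 genotypes share this background. Pkd1 and Pkd2 encode the polycystins, and their loss causes autosomal dominant polycystic kidney disease, the condition the cells model. The Pkd1-/- cells are 1 clone edited with CRISPR, for which the labels give the deletions chr17:24550055-24594963 and chr17:24550106-24594903. The Pkd2-/- cells are 1 clone edited with a TALEN, with the deletion chr5:104478281-104490878. No interferon or other agent was given to any group. RNA was taken 4 days after full confluency from 6 dishes per genotype, and the 4 with the best RNA purity ratio were sequenced. The 4 libraries of a genotype are thus dishes of 1 line, so the p-values below measure the spread between dishes and do not cover the spread between clones.

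Interferons are secreted proteins that warn cells of infection. Type I interferons bind a receptor of IFNAR1 and IFNAR2 and act through a complex that contains STAT2 and IRF9 on the interferon-stimulated response element (ISRE), whereas interferon gamma binds IFNGR1 and IFNGR2 and acts on the gamma-activated sequence (GAS). The induced genes include antiviral effectors, guanylate-binding GTPases and the genes that load peptides onto class I molecules for display to T cells. Tubular epithelial cells of the kidney can carry out this response themselves, whereas class II molecules belong mainly to professional antigen-presenting cells.

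The values are normalized counts, that is, read counts divided by a size factor per library. Their totals ranged from 25966273 to 28027792 per library, and the reads behind them were estimated at 23183386 to 30329302. Mitochondrial genes took 1.36 to 3.615% of a library, the highest share being in Wt replicate 4. Pkd1, the targeted gene, had 682, 688, 883 and 876 normalized counts in Wt and 40, 49, 48 and 30 in Pkd1-/- cells. Pkd2 had 3438 to 4467 in Wt and 3855 to 4135 in Pkd2-/- cells, and since only some of its exons were deleted the gene total does not check that label. The 12 kidney epithelium markers summed to 72039 to 79578 normalized counts in Wt, 71736 to 73445 in Pkd1-/- and 82213 to 84832 in Pkd2-/- cells, although the water channel gene Aqp2 was at 0 in every library. Of the 11 that were tested, 4 fell and 0 rose in Pkd1-/- cells, while 9 rose and 1 fell in Pkd2-/- cells (adjusted p under 0.05, limma). Of all tested genes, 13.5% fell and 13.6% rose in Pkd1-/- cells, and 20% rose and 22.3% fell in Pkd2-/- cells. Leukocyte markers summed to 1140 to 1234 in Wt, 650 to 896 in Pkd1-/- and 913 to 1007 in Pkd2-/- cells. Most of that was Csf1r and Zbtb46, while Ptprc, which marks all leukocytes, stayed at 5 or below. Their part in the results was not tested, and in bulk RNA fewer cells of a type and less RNA per cell cannot be told apart.

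The promoters of the members were searched for the letters of both interferon response elements. RefSeq windows of GRCm38.p6 with 250 bases before the start site were at hand for 36 of the 46 members. The ISRE core was searched as GAAA, 2 bases of any kind and GAAA, or on the other strand as TTTC, 2 bases of any kind and TTTC. The GAS core was searched as TTC, 3 bases of any kind and GAA, which reads the same on both strands. An ISRE core lay in the window of 13 of the 36 members (36.1%) and of 3.46% of all 27025 genes with a window. A GAS core lay in 8 of the 36 (22.2%) and in 8.13% of all genes. Such a match is a description of letters and not evidence of binding. The stretches that follow are shown because they hold these cores in members described further on, and they were kept to those that touch no annotated exon. Each runs 5′ to 3′ on the strand of its gene, and capitals mark the cores, which overlap one another in Isg15, Oas1a and Bst2.
Isg15, chr4:156200863-156200908, minus strand: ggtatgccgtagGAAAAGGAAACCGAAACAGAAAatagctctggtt
Ifit1, chr19:34640773-34640825, plus strand: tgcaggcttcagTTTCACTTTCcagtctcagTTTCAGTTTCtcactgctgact
Ifit3, chr19:34583361-34583428, plus strand: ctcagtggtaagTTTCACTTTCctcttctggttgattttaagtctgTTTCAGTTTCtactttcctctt
Rsad2, chr12:26456551-26456584, minus strand: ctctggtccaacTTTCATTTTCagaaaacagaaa
Oas1a, chr5:120907526-120907557, minus strand: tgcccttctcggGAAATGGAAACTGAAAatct
Bst2, chr8:71537575-71537614, minus strand: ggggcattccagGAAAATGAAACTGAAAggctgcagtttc
Gbp7, chr3:142530271-142530304, plus strand: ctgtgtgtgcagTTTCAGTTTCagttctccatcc
B2m, chr2:122147536-122147569, plus strand: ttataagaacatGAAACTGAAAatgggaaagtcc
Stat2, chr10:128270264-128270297, plus strand: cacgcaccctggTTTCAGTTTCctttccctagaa
Irf1 (GAS core), chr11:53769912-53769944, plus strand: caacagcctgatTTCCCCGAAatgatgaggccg

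The 3 cores of Isg15 start 78, 72 and 66 bases before the start site, and the nearest core to a start site is that of Oas1a, beginning 14 bases before it. Ifit1 and Ifit3, neighbours on chromosome 19, each hold 2 separate cores. In Bst2 a GAS core shares 3 bases with the ISRE cores.

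Most antiviral genes were lower in Pkd1-/- and higher in Pkd2-/- cells than in Wt. Of the 46 members, 43 had a mean of at least 1 normalized count and were tested, while Ciita, H2-Aa and H2-Ab1 were below it. In Pkd1-/- cells 27 members fell and 4 rose at an adjusted p under 0.05 (limma on log2(normalized count + 1), Benjamini-Hochberg over 18552 genes), against 13.5% of all tested genes lower and 13.6% higher. Their median log2 fold change was -0.37, and that of all tested genes was 0.01. In Pkd2-/- cells 28 members rose and 5 fell, against backgrounds of 20% higher and 22.3% lower, with a median of 0.51 beside -0.01 for all genes. Counted by libraries that do not overlap between the genotypes, 28 members were lower and 4 higher in Pkd1-/- cells (13.6% and 13.5% of all tested genes), and 28 were higher and 5 lower in Pkd2-/- cells (17.4% and 19.8%). Both comparisons share the Wt libraries, so they are not independent of each other. With a change of at least 2-fold required as well, 7 members were lower in Pkd1-/- cells and 1, Oasl1, was higher, against backgrounds of 3.28% and 2.96%. The same requirement left 11 members higher and 1, Cd74, lower in Pkd2-/- cells, against 3.24% and 6.38%.

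Lower in Pkd1-/- and higher in Pkd2-/- cells were 18 members, against 3.17% of all tested genes. They are B2m, Bst2, Ddx58, Gbp2, Gbp3, Ifi27, Ifih1, Ifit1, Ifit2, Irf1, Irf7, Irf9, Isg15, Mx2, Oas1a, Oasl2, Psmb8 and Usp18. The opposite arrangement, higher in Pkd1-/- and lower in Pkd2-/- cells, held for no member and for 3.53% of all genes. Both mutants were higher for H2-D1, H2-K1 and Tap2 (background 4.79%) and lower for Ifit3, Ifngr1, Ifngr2 and Psmb10 (background 5.63%).

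**Figure D1:**
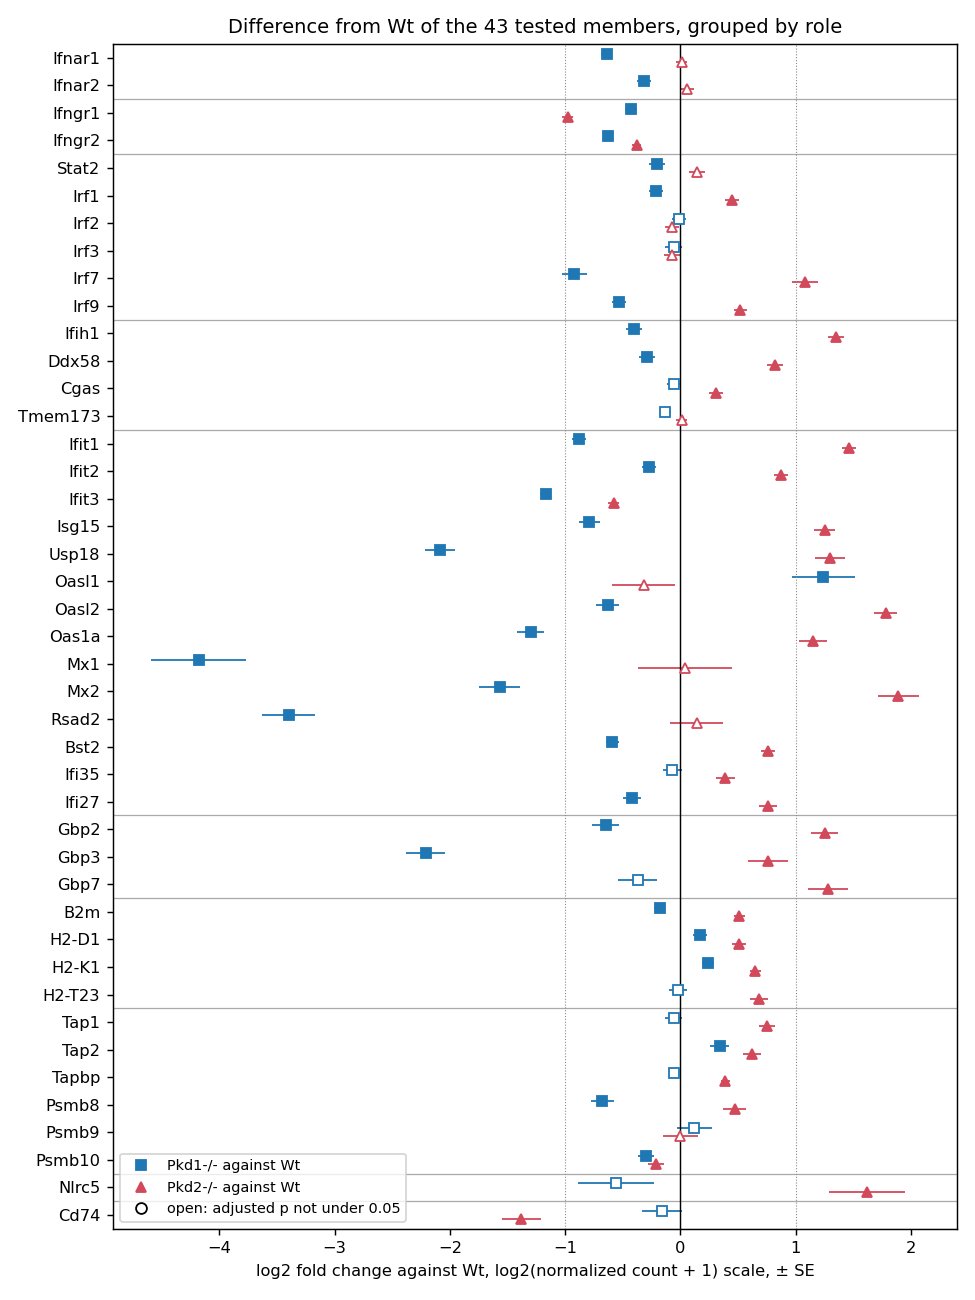
Log2 fold change against Wt, with its standard error, of each tested member in Pkd1-/- (squares) and Pkd2-/- cells (triangles), 4 libraries per genotype, on the log2(normalized count + 1) scale, with horizontal lines between roles. Filled symbols passed an adjusted p under 0.05, and dotted lines mark a 2-fold change. The squares lie mostly left of 0 and the triangles mostly right of it, but Oasl1 is reversed. The squares of H2-D1, H2-K1, Tap2 and Psmb9 lie right of 0. The triangles of Irf2, Irf3, Ifngr1, Ifngr2, Ifit3, Psmb10 and Cd74 lie left of it, and that of Psmb9 is at 0. The Pkd1-/- point of Mx1, at 0 in those libraries, depends on the added pseudocount and is no measure of its fold.

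In Pkd1-/- cells the receptor genes fell with most antiviral genes, but none of them rose against Wt in Pkd2-/- cells. Ifnar1, the signalling subunit of the type I receptor at chr16:91485238-91507441, had 3493, 3654, 3593 and 3716 normalized counts in Wt. It had 2199, 2371, 2293 and 2411 in Pkd1-/- cells and 3621, 3605, 3479 and 3904 in Pkd2-/- cells. All Pkd1-/- libraries lay below all others, and the Pkd2-/- libraries overlapped Wt. Its log2 fold change was -0.64 ± 0.05 (SE, adjusted p = 5.24e-09, limma) in Pkd1-/- and 0.01 ± 0.05 (adjusted p = 0.846, limma) in Pkd2-/- cells. Ifnar2, which binds the ligand with it, behaved alike, with 1583 to 1898 in Wt, 1371 to 1448 in Pkd1-/- and 1731 to 1909 in Pkd2-/- cells. Its log2 fold changes were -0.32 (adjusted p = 0.000443, limma) and 0.06 (adjusted p = 0.507, limma).

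Both subunits of the interferon gamma receptor fell in both mutants. Ifngr1, the ligand-binding subunit at chr10:19591949-19610229, had 2687, 2861, 2830 and 2901 in Wt. Pkd1-/- cells had 2049, 2126, 2130 and 2066 and Pkd2-/- cells 1397, 1499, 1380 and 1444. The 3 genotypes formed 3 separate bands, with Pkd2-/- cells the lowest. The log2 fold changes were -0.43 ± 0.05 (adjusted p = 6.99e-07, limma) and -0.98 ± 0.05 (adjusted p = 3.29e-12, limma). The latter is close to the 2-fold line, and leaving out Wt replicate 1 or Pkd2-/- replicate 2 brought it past that line, which made 2 members lower by 2-fold in Pkd2-/- cells. Ifngr2, the signalling subunit at chr16:91547072-91565623, had 4538 to 4974 in Wt, 3040 to 3141 in Pkd1-/- and 3566 to 3814 in Pkd2-/- cells. Here the Pkd1-/- cells were the lowest of the 3, with log2 fold changes of -0.63 and -0.38 (adjusted p = 1.94e-09 and 9.24e-07, limma).

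**Figure D2:**
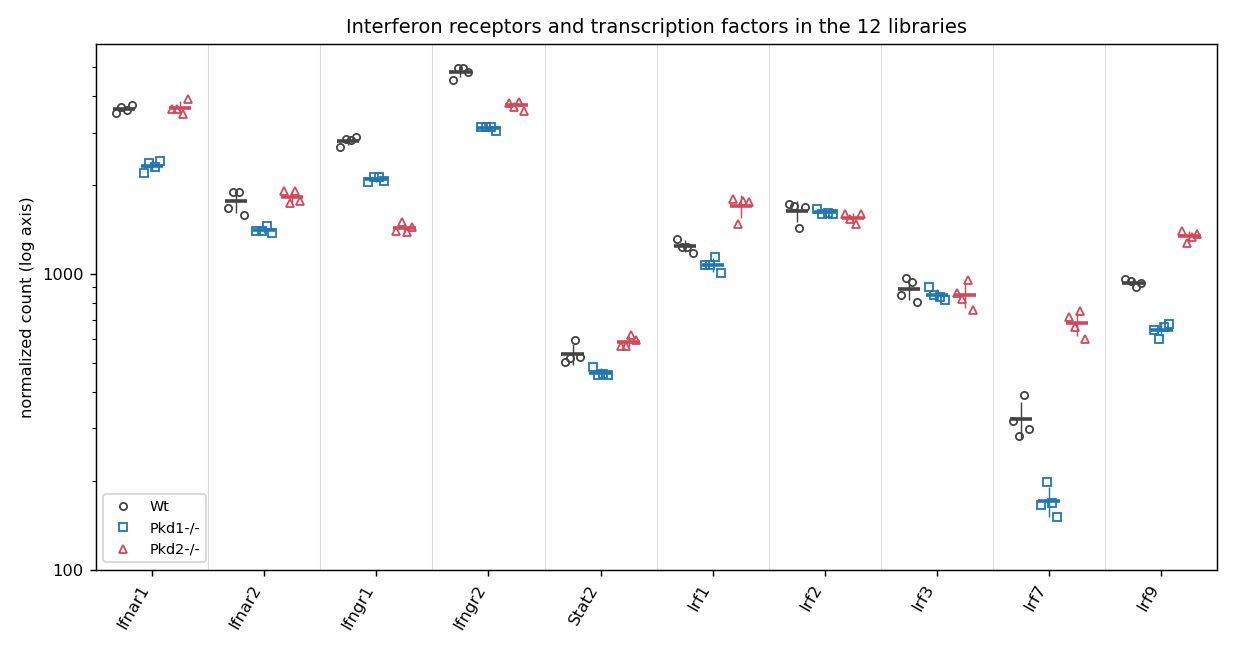
Normalized counts of the 4 receptor subunits and 6 transcription factors in each of the 12 libraries, on a log axis. Symbols are libraries, thick bars are the mean of 4 and thin lines are 1 SD. Ifngr1 is lowest in Pkd2-/- cells (1380 to 1499), Ifngr2 in Pkd1-/- cells (3040 to 3141), and Irf7 spans the widest range.

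Among the 6 transcription factors, Irf1, Irf7 and Irf9 fell in Pkd1-/- and rose in Pkd2-/- cells. Irf7, which amplifies the type I response, had 318, 284, 390 and 299 normalized counts in Wt. It had 165, 197, 168 and 150 in Pkd1-/- cells, and in Pkd2-/- cells 712, 663, 750 and 600. No library of one genotype reached the range of another. The log2 fold changes were -0.92 ± 0.11 (adjusted p = 2.39e-06, limma) and 1.08 ± 0.11 (adjusted p = 1.36e-07, limma), so Pkd2-/- exceeded Pkd1-/- cells by 2.00, a 4-fold difference. Irf9, the DNA-binding part of the type I complex, had 906 to 959 in Wt, 602 to 679 in Pkd1-/- and 1267 to 1392 in Pkd2-/- cells. Its changes were nearly symmetrical, at -0.53 and 0.52. Irf1, the main factor of the gamma response, had 1177 to 1316 in Wt, 1004 to 1139 in Pkd1-/- and 1474 to 1792 in Pkd2-/- cells.

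The fall of Irf1 in Pkd1-/- cells was small (log2 fold change -0.21, adjusted p = 0.0197, limma) and did not pass without Wt replicate 1 (-0.18, adjusted p = 0.0657) or without Pkd1-/- replicate 4 (-0.18, adjusted p = 0.0703). Its rise in Pkd2-/- cells was 0.45 (adjusted p = 1.49e-05, limma). Stat2 had 503 to 597 in Wt, 455 to 486 in Pkd1-/- and 570 to 623 in Pkd2-/- cells. Its log2 fold change of -0.20 in Pkd1-/- cells (adjusted p = 0.0306, limma) was lost without Wt replicate 3 (-0.15, adjusted p = 0.121) and without Pkd1-/- replicate 2, 3 or 4 (adjusted p = 0.0681 to 0.0725). Against Wt it was 0.14 in Pkd2-/- cells (adjusted p = 0.103, limma), which passed without Wt replicate 3 (0.20, adjusted p = 0.0289). Irf2, which restrains the response, and Irf3, which waits in the cytoplasm for a sensor to activate it, passed in neither mutant, with log2 fold changes between -0.07 and -0.01. Without Wt replicate 3, the lowest Wt library for Irf2, that gene passed in Pkd2-/- cells at -0.13 (adjusted p = 0.0456, limma).

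The sensors of viral RNA moved with the antiviral genes, and those of DNA less so. Ifih1 (MDA5), at chr2:62595798-62646255, had 599, 489, 546 and 577 normalized counts in Wt. It had 409, 421, 440 and 397 in Pkd1-/- and 1370, 1442, 1450 and 1374 in Pkd2-/- cells. The Pkd2-/- libraries thus held over 2 times the highest Wt value. The log2 fold changes were -0.40 ± 0.07 (adjusted p = 0.000129, limma) and 1.35 ± 0.07 (adjusted p = 7.64e-12, limma). Ddx58 (RIG-I) had 921 to 1140 in Wt, 771 to 876 in Pkd1-/- and 1656 to 1947 in Pkd2-/- cells, with changes of -0.29 and 0.82. Cgas, the sensor of cytosolic DNA, rose only in Pkd2-/- cells among the comparisons with Wt (0.31, adjusted p = 0.000324, limma), with 862 to 928 in Wt and 1024 to 1214 in Pkd2-/- cells. Its partner Tmem173 (STING) ranged from 1746 to 2118 over all libraries and passed in neither mutant, though without Wt replicate 1 it passed in Pkd1-/- cells at -0.16 (adjusted p = 0.0489, limma).

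The 14 antiviral genes and 3 guanylate-binding proteins showed the widest separation of the genotypes. In Pkd1-/- cells 14 of these 17 genes fell, 1 rose and 2 did not pass, and the median change was -0.79 on the log2 scale. Against Wt, 13 rose, 1 fell and 3 did not pass in Pkd2-/- cells, where the median was 0.87. Between the mutants 16 were higher in Pkd2-/- cells and 1 was lower, and the median difference was 2.04. Among all tested genes, 13.5% fell and 13.6% rose in Pkd1-/- cells, and 20% rose and 22.3% fell in Pkd2-/- cells. Between the mutants 21.9% of all tested genes were higher in Pkd2-/- cells and 24.3% were lower. The epithelial markers were also highest in sum in Pkd2-/- cells (82213 to 84832), with 71736 to 73445 in Pkd1-/- and 72039 to 79578 in Wt cells, and their part in the antiviral values was not tested. The summed leukocyte markers were also lowest in Pkd1-/- cells (650 to 896), although Wt rather than Pkd2-/- cells were highest (1140 to 1234). Of the 12 markers 8 stayed at 3 or below in every library, among them Itgam, Adgre1 and Cd3e at 0, and the part of the rest was not tested.

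Isg15 encodes a ubiquitin-like modifier that is attached to proteins during infection. It had 400, 363, 417 and 445 normalized counts in Wt, 249, 216, 222 and 251 in Pkd1-/- and 1002, 1006, 1050 and 819 in Pkd2-/- cells. The 3 groups of libraries were well apart, at log2 fold changes of -0.79 ± 0.09 (adjusted p = 1.5e-06, limma) and 1.25 ± 0.09 (adjusted p = 1.4e-09, limma). Usp18 removes ISG15 from proteins and also dampens the type I receptor. It had 242, 308, 322 and 341 in Wt, 85, 74, 56 and 68 in Pkd1-/- and 772, 814, 777 and 622 in Pkd2-/- cells. All Pkd1-/- values stood far under the lowest Wt library and all Pkd2-/- values far over the highest. The log2 fold changes were -2.09 ± 0.13 (adjusted p = 5.11e-10, limma) and 1.30 ± 0.13 (adjusted p = 1.57e-07, limma), and the mutants differed by 3.39, or 10.47-fold on the fitted scale.

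The IFIT proteins bind foreign RNA and block its translation, and their genes stand side by side on chromosome 19. Ifit1, whose 2 ISRE cores are printed above, had 1937, 1507, 1682 and 1761 in Wt, 943, 871, 930 and 980 in Pkd1-/- and 4608, 4889, 4830 and 4520 in Pkd2-/- cells. Its 3 groups did not touch, with changes of -0.88 ± 0.06 (adjusted p = 4.84e-09, limma) and 1.46 ± 0.06 (adjusted p = 1.61e-12, limma). Ifit2 had 6989, 5996, 6487 and 7157 in Wt, 5308, 5514, 5333 and 5827 in Pkd1-/- and 11189, 12834, 11813 and 12633 in Pkd2-/- cells, so that it fell by less, by 0.27 on the log2 scale, and rose by 0.87. Ifit3 did not share the rise of Ifit1 and Ifit2 in Pkd2-/- cells. It had 6816, 6602, 6993 and 6953 in Wt, 3292, 3005, 2868 and 2970 in Pkd1-/- and 4640, 4761, 4542 and 4328 in Pkd2-/- cells. Both mutants were below Wt, at -1.17 ± 0.05 (adjusted p = 1.48e-12, limma) and -0.58 ± 0.05 (adjusted p = 1.18e-08, limma). Ifit3b, a close copy of Ifit3 with which reads could be shared, had means of 2450, 1119 and 1540 in Wt, Pkd1-/- and Pkd2-/- cells, the same order. Ifit1bl1, a relative of Ifit1, had means of 634, 354 and 205, lowest in Pkd2-/- cells. Ifit3b and Ifit1bl1 thus fell in both mutants, like Ifit3, with log2 fold changes of -1.13 and -0.67, and of -0.84 and -1.63.

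The oligoadenylate synthetase family makes the second messenger that activates RNase L. Oas1a, with cores directly at its start site, had 221, 187, 246 and 215 normalized counts in Wt, 93, 98, 95 and 66 in Pkd1-/- and 512, 516, 457 and 441 in Pkd2-/- cells. Its log2 fold changes were -1.30 ± 0.12 (adjusted p = 1.64e-07, limma) and 1.15 ± 0.12 (adjusted p = 4.17e-07, limma). Oasl2 had 313, 348, 436 and 470 in Wt, 243, 239, 269 and 249 in Pkd1-/- and 1364, 1292, 1451 and 1230 in Pkd2-/- cells, at -0.63 and 1.78. Both genes thus went the common way, in groups that did not overlap. Oasl1, which lies beside Oasl2 on chromosome 5, went the other way. It had 14, 14, 29 and 17 in Wt, 44, 51, 33 and 47 in Pkd1-/- and 13, 17, 17 and 10 in Pkd2-/- cells. This low-expressed gene rose by 1.24 ± 0.27 (adjusted p = 0.00182, limma) in Pkd1-/- cells and did not pass in Pkd2-/- cells (-0.32, adjusted p = 0.382, limma). Oas1a has near copies in the same cluster, among them Oas1g with means of 61.5, 20.8 and 154, so the split of reads between them is uncertain.

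The Mx dynamin-like GTPases and Rsad2 (viperin), which makes an inhibitor of viral polymerases, were almost silent in Pkd1-/- cells. Mx1 had 33, 10, 9 and 28 in Wt, 0 in each of the 4 Pkd1-/- libraries and 16, 16, 16 and 24 in Pkd2-/- cells. A value of 0 allows up to 3 counts in a library, and against a floor of 3 normalized counts per library Mx1 was at least 6.67-fold lower in Pkd1-/- than in Wt cells (adjusted p = 2.43e-07, limma). Its Wt libraries fell into a high and a low pair, and Pkd2-/- cells lay within them. Mx2, annotated as a polymorphic pseudogene, had 57, 54, 76 and 58 in Wt, 15, 21, 18 and 27 in Pkd1-/- and 205, 231, 240 and 237 in Pkd2-/- cells. Its changes were -1.57 ± 0.18 (adjusted p = 1.52e-06, limma) and 1.89 ± 0.18 (adjusted p = 6.26e-08, limma), the largest rise of any member in Pkd2-/- cells. Rsad2 had 162, 184, 230 and 314 in Wt, 29, 12, 18 and 23 in Pkd1-/- and 238, 280, 215 and 220 in Pkd2-/- cells. The Wt libraries of Rsad2 spread widely and enclosed all Pkd2-/- values, so only the fall in Pkd1-/- cells passed, at -3.40 ± 0.23 (adjusted p = 1.17e-09, limma).

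Bst2 (tetherin), which holds budding virus at the cell surface, was among the stronger of these genes per length of exon. It had 1914, 2202, 2335 and 2191 in Wt, 1453, 1441, 1433 and 1380 in Pkd1-/- and 3691, 3487, 4014 and 3421 in Pkd2-/- cells. The 3 groups were apart, at log2 fold changes of -0.59 ± 0.06 (adjusted p = 4.76e-07, limma) and 0.76 ± 0.06 (adjusted p = 8.45e-09, limma). Ifi27 had 1656 to 2005 in Wt, 1329 to 1584 in Pkd1-/- and 2708 to 3540 in Pkd2-/- cells, at -0.42 and 0.76. Ifi35 had 607 to 642 in Wt and 551 to 632 in Pkd1-/- cells, which overlapped, and 736 to 995 in Pkd2-/- cells, where it rose by 0.39 (adjusted p = 0.000566, limma).

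Guanylate-binding proteins attack the vacuoles of intracellular pathogens and respond chiefly to interferon gamma. Gbp2 had 262, 203, 240 and 281 normalized counts in Wt, 149, 143, 181 and 152 in Pkd1-/- and 558, 684, 630 and 476 in Pkd2-/- cells. Gbp3 had 184, 153, 223 and 299 in Wt, 44, 38, 41 and 56 in Pkd1-/- and 363, 388, 370 and 302 in Pkd2-/- cells. In both genes the groups kept apart, although for Gbp3 the highest Wt library and the lowest Pkd2-/- library nearly met. The log2 fold changes were -0.65 and 1.25 for Gbp2 and -2.21 and 0.76 for Gbp3. Gbp7 had 177, 96, 132 and 174 in Wt, 132, 122, 93 and 93 in Pkd1-/- and 326, 372, 368 and 311 in Pkd2-/- cells. It rose by 1.28 ± 0.17 (adjusted p = 5.1e-06, limma) in Pkd2-/- cells. In Pkd1-/- cells its -0.37 did not pass (adjusted p = 0.121, limma), but it did without Wt replicate 2, the lowest Wt library (-0.55, adjusted p = 0.00894, limma).

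**Figure D3:**
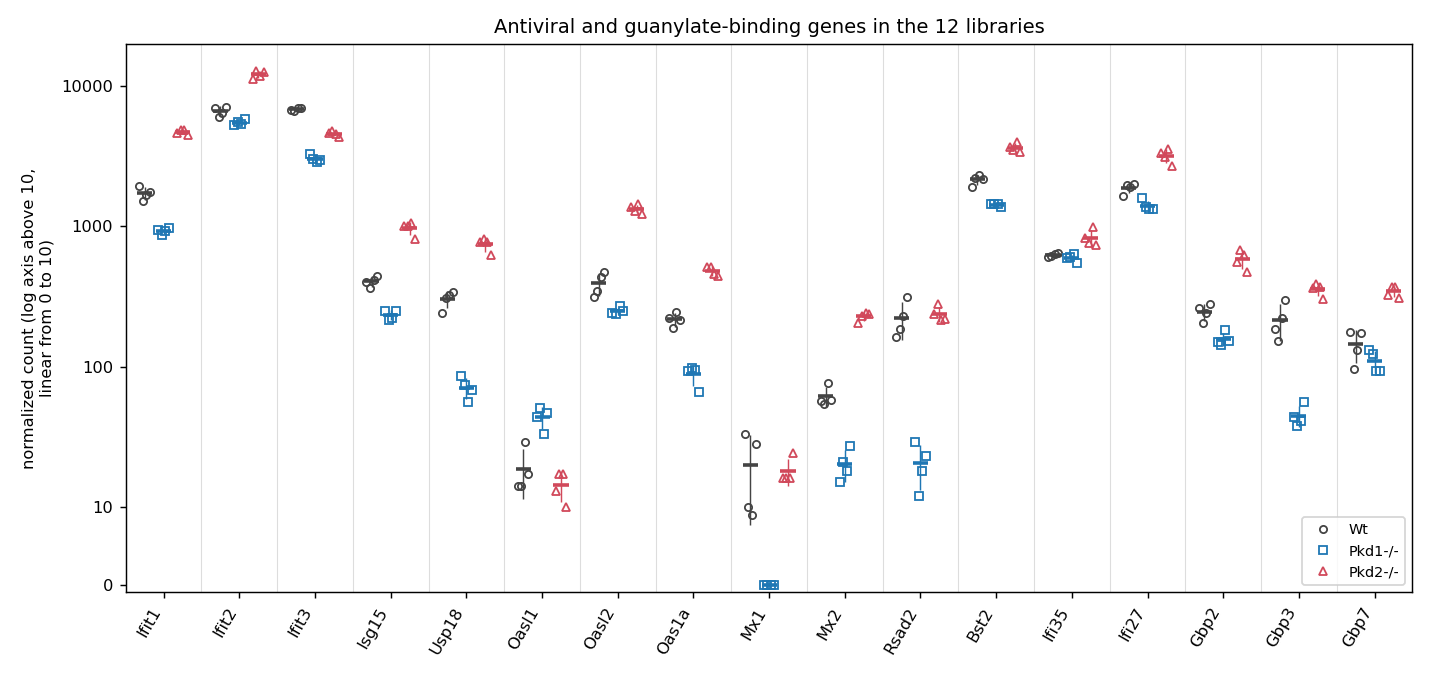
Normalized counts of the 14 antiviral and 3 guanylate-binding genes in each of the 12 libraries, on an axis that is linear from 0 to 10 and logarithmic above. Symbols are libraries, thick bars are the mean of 4 and thin lines are 1 SD. Pkd1-/- squares lie lowest and Pkd2-/- triangles highest for most genes, with Oasl1 and Ifit3 as exceptions and Mx1 at 0 in the 4 Pkd1-/- libraries.

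Set against the promoter windows, the 13 members with an ISRE core held 10 that fell and 0 that rose in Pkd1-/- cells, and the median change was -0.65 on the log2 scale. Against Wt, 9 of them rose and 1 fell in Pkd2-/- cells (median 0.76). These counts stand beside 13.5% lower and 13.6% higher of all tested genes in Pkd1-/- cells, and 22.3% and 20% in Pkd2-/- cells. Of the 22 tested members with a window but no such core, 13 fell and 3 rose in Pkd1-/- cells (median -0.28) and 14 rose and 3 fell in Pkd2-/- cells (median 0.42). Ifit3 held 2 cores and yet was lower in both mutants, while Usp18 and Mx2 had no window in the table.

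All 4 class I genes and 4 of the 6 peptide supply genes rose in Pkd2-/- cells, whereas in Pkd1-/- cells 3 of these 10 rose, 3 fell and 4 did not pass. The shares of all tested genes were 20% higher in Pkd2-/- cells, and 13.6% higher and 13.5% lower in Pkd1-/- cells. B2m, the light chain of every class I molecule at chr2:122147686-122153083, had 8997, 9353, 9305 and 9171 normalized counts in Wt. Pkd1-/- cells had 8884, 7921, 8058 and 7684 and Pkd2-/- cells 13515, 13518, 13727 and 11929. Its log2 fold changes were -0.18 ± 0.05 (adjusted p = 0.0147, limma) and 0.51 ± 0.05 (adjusted p = 1.99e-07, limma). The Pkd1-/- libraries stood narrowly apart from Wt, and without Pkd1-/- replicate 4 the call was lost (-0.15, adjusted p = 0.0559, limma).

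The heavy chain genes H2-K1 and H2-D1, in the major histocompatibility complex of chromosome 17, rose in both mutants. H2-K1 had 12801, 14372, 13481 and 12804 in Wt, 16118, 15388, 15682 and 15822 in Pkd1-/- and 21647, 20356, 22877 and 19187 in Pkd2-/- cells. The order Wt, Pkd1-/-, Pkd2-/- held without overlap, at 0.24 ± 0.05 (adjusted p = 0.00235, limma) and 0.65 ± 0.05 (adjusted p = 1.17e-08, limma). H2-D1 had 8221, 9521, 9013 and 8198 in Wt, 9989, 9576, 9866 and 9842 in Pkd1-/- and 13282, 12296, 13360 and 10992 in Pkd2-/- cells. Its rise in Pkd2-/- cells was 0.51 (adjusted p = 1.4e-06, limma), but that in Pkd1-/- cells was barely past the threshold (0.17, adjusted p = 0.0447, limma). It was lost, at an adjusted p between 0.0542 and 0.13, without any one of Wt replicates 1, 3 or 4, without any one Pkd1-/- replicate and without Pkd2-/- replicate 2. It was also lost with no filter on low values (0.17, adjusted p = 0.0698, limma). H2-T23 (Qa-1), a nonclassical heavy chain seen by natural killer cells, had 529 to 598 in Wt, 521 to 584 in Pkd1-/- and 796 to 1065 in Pkd2-/- cells, and rose only in the latter among the comparisons with Wt (0.68, adjusted p = 1.51e-06, limma).

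Since heavy chain genes are near copies of one another, the 15 class I heavy chain genes of the lists were also summed. The sums were 23494, 26479, 24978 and 23445 in Wt, 28657, 27579, 28073 and 28082 in Pkd1-/- and 38083, 35739, 39557 and 32980 in Pkd2-/- cells. The summed levels kept the order of H2-K1, with means 1.14 and 1.49 times that of Wt and no overlap between genotypes. H2-K1 and H2-D1 made up 89.48 to 91.72% of the sum in every library.

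Peptides reach class I molecules through the transporter TAP1-TAP2 and the bridging protein tapasin (Tapbp). Tap1 had 447 to 526 normalized counts in Wt, 442 to 508 in Pkd1-/- and 763 to 912 in Pkd2-/- cells. The changes were -0.06 (adjusted p = 0.597, limma) and 0.75 (adjusted p = 1.26e-07, limma) on the log2 scale. Tap2 had 433 to 493, 521 to 633 and 624 to 768, at 0.34 (adjusted p = 0.00327, limma) and 0.62 (adjusted p = 4.28e-06, limma). The subunits of the transporter thus went separate ways in Pkd1-/- cells, where Tap2 rose and Tap1 overlapped Wt, and both rose in Pkd2-/- cells. Tapbp had 6347 to 6919 in Wt, 6330 to 6624 in Pkd1-/- and 8471 to 9203 in Pkd2-/- cells, rising by 0.39 in the last (adjusted p = 5.67e-07, limma). It shares 3422 bases with Zbtb22 on the same strand, whose values were 1553 to 1878.

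**Figure D4:**
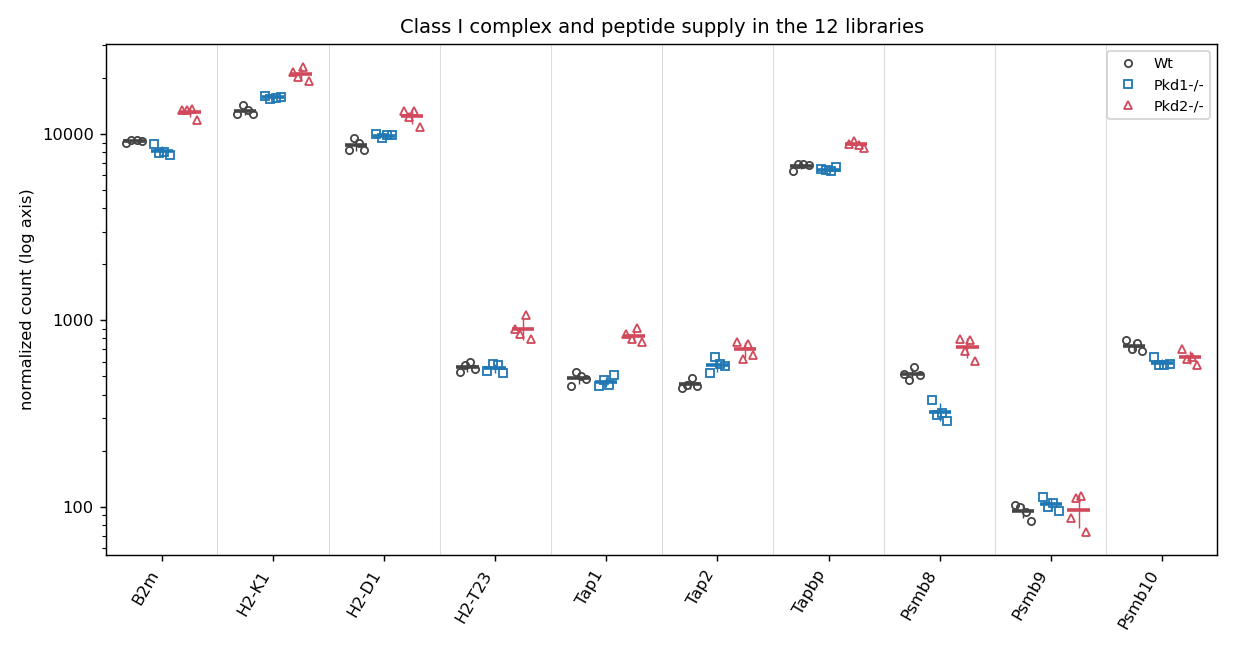
Normalized counts of the 4 class I and 6 peptide supply genes in each of the 12 libraries, on a log axis. Symbols are libraries, thick bars are the mean of 4 and thin lines are 1 SD. Pkd2-/- means are highest for 8 of the 10 genes, whereas the genotypes overlap for Psmb9 and Wt is highest for Psmb10.

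Under interferon gamma the proteasome exchanges its catalytic subunits Psmb5, Psmb6 and Psmb7 for Psmb8, Psmb9 and Psmb10. Psmb8 had 513, 478, 564 and 511 normalized counts in Wt, 375, 311, 319 and 289 in Pkd1-/- and 795, 684, 788 and 604 in Pkd2-/- cells. It went the way of the antiviral genes, at -0.68 ± 0.10 (adjusted p = 2.22e-05, limma) and 0.47 ± 0.10 (adjusted p = 0.000546, limma). Psmb9, which runs from the same promoter region as Tap1 on the opposite strand and overlaps it by 212 bases, had only 73 to 114 over all libraries and passed in neither mutant. Psmb10 had 683 to 783 in Wt, 573 to 636 in Pkd1-/- and 577 to 700 in Pkd2-/- cells, and fell in both, by 0.30 (adjusted p = 0.00284, limma) and 0.21 (adjusted p = 0.021, limma). The Pkd2-/- libraries overlapped Wt, and that fall was lost without Wt replicate 1, Wt replicate 3 or Pkd2-/- replicate 4 (adjusted p = 0.0593 to 0.0736). The 3 immunoproteasome genes therefore took 3 different courses.

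Per library, Psmb8 was 32.8% ± 2.65 (SD, n = 4) of Psmb5 in Wt, 18.7% ± 1.61 in Pkd1-/- and 48.3% ± 1.15 in Pkd2-/- cells. Psmb10 was 15.8% ± 1.14 of Psmb7 in Wt, 11.6% ± 0.324 in Pkd1-/- and 10.95% ± 0.383 in Pkd2-/- cells. Psmb9 was 1.41 to 1.68% of Psmb6 in Wt, 1.54 to 1.59% in Pkd1-/- and 1.40 to 1.96% in Pkd2-/- cells, which overlapped. For the Psmb8 ratio all genotypes were apart, and for the Psmb10 ratio both mutants lay below Wt. Each of these gaps had a two-sided exact permutation p of 0.0286, the smallest that 4 against 4 libraries can give, and 0.0515 after adjustment over 9 comparisons, which does not pass 0.05.

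**Figure D5:**
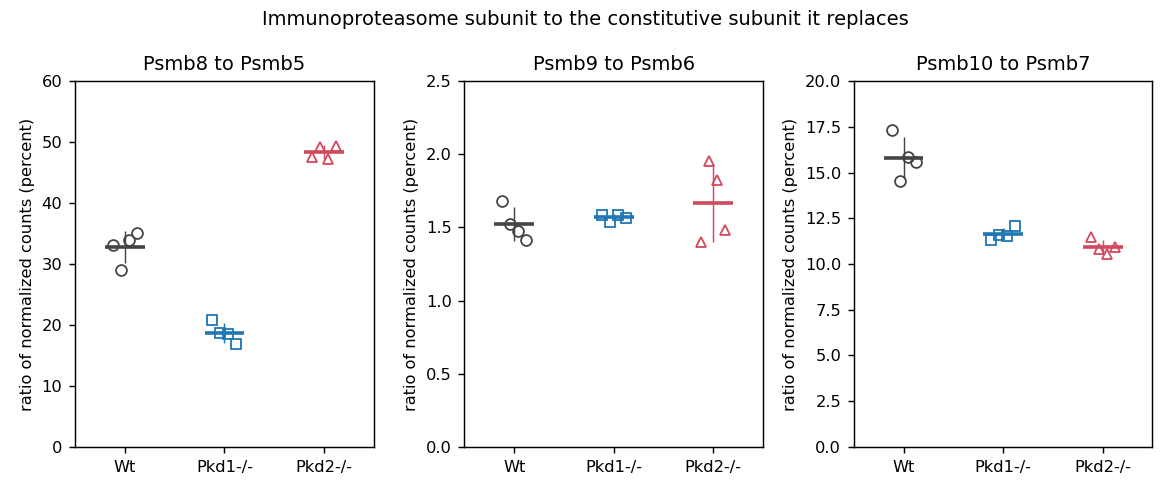
Ratio, in percent, of the normalized count of each immunoproteasome subunit to that of the constitutive subunit it replaces, per library (symbols), with the mean of 4 (thick bar) and 1 SD (thin line). The axes start at 0 and differ between panels. The Psmb8 ratio is separate in the 3 genotypes (means 32.8, 18.7 and 48.3%), and the Psmb9 ratios overlap.

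The class II chain genes of the module were near 0, whereas Cd74 and the genes of the peptide exchange factor were not. Nlrc5, the transactivator of class I genes, was low, with 5, 9, 9 and 11 in Wt, 3, 6, 5 and 8 in Pkd1-/- and 24, 24, 36 and 27 in Pkd2-/- cells. Every Pkd2-/- library exceeded all others, and it rose there by 1.62 ± 0.33 (adjusted p = 0.000472, limma). Ciita, the transactivator of class II genes, had 0 to 2 and the class II chain genes H2-Aa and H2-Ab1 had 0 to 3 in any library, too few to compare. Cd74, the invariant chain that escorts class II molecules, was nevertheless present. It had 131, 136, 136 and 142 in Wt, 142, 139, 104 and 106 in Pkd1-/- and 61, 53, 62 and 36 in Pkd2-/- cells. The Pkd2-/- libraries lay below all others, with a fall of 1.38 on the log2 scale (adjusted p = 1.83e-06, limma), against the direction of the class I genes. From the wider list, H2-DMa and H2-DMb1, which encode the exchange factor that loads class II molecules, had means of 89.5 and 745 in Wt, 133 and 869 in Pkd1-/- and 96.2 and 776 in Pkd2-/- cells. Both rose in Pkd1-/- cells (0.57 and 0.22, adjusted p = 0.00701 and 0.0476, limma) and passed in neither direction in Pkd2-/- cells, and they were named after their values were seen. Of the leukocyte markers whose sum is given above, Csf1r and Zbtb46 also fell in Pkd2-/- cells (-0.26 and -0.42, adjusted p = 0.0422 and 0.0011, limma), and their part in the Cd74 values was not tested.

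The 2 mutants were compared directly to test whether their differences from Wt differed. Between them 36 members were higher in Pkd2-/- cells and 3 were lower, against backgrounds of 21.9% and 24.3% of all tested genes. The median log2 difference was 0.70, beside -0.01 for all genes. With at least 2-fold required, 20 were higher and 2, Oasl1 and Cd74, were lower, against 4.53% and 7.23%. By libraries that do not overlap 35 were higher and 3 lower, against 19.8% and 22%. The widest gaps among members with counts in both mutants were those of Rsad2 at 3.53, Mx2 at 3.46, Usp18 at 3.39 and Gbp3 at 2.97. Ifngr1 was the third gene that was lower in Pkd2-/- cells, by 0.55 on the log2 scale. Irf2, Irf3, Psmb9 and Psmb10 did not pass, and the difference of Tmem173 (0.14, adjusted p = 0.0371, limma) was lost without Pkd1-/- replicates 2 or 4, without Pkd2-/- replicates 1 or 3 (adjusted p = 0.0914 to 0.115), and when libraries were rescaled by their upper quartile (0.10, adjusted p = 0.174).

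Levels differed widely between members. Per kilobase of annotated exon, B2m was the highest member in Wt at 10705 normalized counts, followed by H2-K1 at 4549, Ifit3 at 3920, H2-D1 at 3388 and Bst2 at 2393. Mx1, Oasl1 and Nlrc5 were at the foot of the tested members, at 5.28, 7.09 and 1.00. In Pkd2-/- cells Bst2 reached 4046 and Ifit2 3086, and in Pkd1-/- cells 1580 and 1399.

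The wider pathway was counted on 111 further genes, of which 93 were tested. Of these, 38 fell in Pkd1-/- cells and 5 rose, and 37 rose and 18 fell in Pkd2-/- cells, with medians of -0.18 and 0.13. Over all tested genes, 13.5% were lower and 13.6% higher in Pkd1-/- cells, and 20% were higher and 22.3% lower in Pkd2-/- cells. Read against these shares, the 5 that rose in Pkd1-/- cells were below the background, and the 18 that fell in Pkd2-/- cells were near it. The interferon genes themselves gave almost no counts, as 11 were listed and 2 were tested. Ifnb1 was at 0 in the 4 Pkd1-/- libraries and at most 5 elsewhere. It passed between the mutants (adjusted p = 0.0224, limma), but the means of 0 and 2.5 are under the floor of 3 and no fold is given. Of the 41 further interferon-stimulated genes tested, 24 fell and 0 rose in Pkd1-/- cells at an adjusted p under 0.05 (limma). Of the same 41, 20 rose and 7 fell in Pkd2-/- cells, beside 20% and 22.3% of all tested genes, so the 7 were near the background.

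By the size of their change, the leading genes of that wider list with a mean of at least 10 over the 12 libraries were, in Pkd1-/- cells, Cmpk2, Oas3, Trim30a and Oas2, which all fell. Cmpk2, a nucleotide kinase beside Rsad2, had means of 128 in Wt, 18.5 in Pkd1-/- and 102 in Pkd2-/- cells, a course like that of Rsad2. Oas3 had 44.5, 7.75 and 126. The leading genes in Pkd2-/- cells were Irf8, which rose by 2.77 and also by 1.25 in Pkd1-/- cells, and Mr1, Ifi204 and Cd1d1, which fell by 2.75, 2.46 and 1.94 on the log2 scale. Mr1 and Cd1d1 encode class I-like molecules that present metabolites and lipids, and their fall ran against the rise of the classical heavy chains. Between the mutants the largest differences were those of Oas3 at 3.99, Rtp4 at 3.13, Oas1g at 2.88 and Cd1d1 at -2.72.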

How the data were processed

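RNA-seq was performed on 12 libraries, 4 per genotype. Per the labels and the methods of the study, the authors trimmed reads with Trim Galore, aligned them to mm10 with HISAT2, counted them per gene with HTSeq and scaled them with DESeq2, and replicates were not pooled. The strand setting and annotation release are not given in the sources used here. The authors rounded these normalized counts to whole numbers, which makes them a score and not raw counts, so no count model was used. All 12 sample columns were used. GENCODE M21 matched 47223 of 47642 identifiers.

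Values were analysed as log2(normalized count + 1) with limma 3.58.1 in R 4.3.3 (moderated, with trend, 3 genotypes in 1 model), on 18552 genes with a mean of at least 1, with Benjamini-Hochberg adjustment over all of them. A p under 0.05 counted as passed. Exact permutation tests were two-sided. Fold changes on this scale understate the change of low genes. With Mx1 set at its floor in place of its fitted value, the medians given did not change (-0.37, 0.51 and 0.70 for all members). Mx1 lay on the same side of each median with either value, so the medians could not move and this is no check of them. The procedure was tested on simulated data, where a call needed an adjusted p under 0.05 and a change of at least 2-fold. In a simulated Pkd1-/- against Wt comparison over 18169 genes, 149 of 194 changed genes were called in the right direction and 2 unchanged genes were called. Every planted change was larger than 2-fold. The simulation therefore does not cover calls by adjusted p alone or smaller changes. Estimated reads were derived from the steps between low values. Floors cover counting error only, whereas the ± values, limma standard errors or SDs of 4 libraries, measure the spread between dishes.

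Members, lists and the rule for named genes were chosen with earlier results of these data known. All members are named. Other genes are named by the size of their change (the 4 largest called per comparison), apart from exceptions stated. Whether same-numbered dishes pair was checked: correlations of their deviations were -0.073 to 0.2, and 2 of 12 exceeded 0.1, so no block was used. No pair of libraries was identical. Alternatives are given in the closing section.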

Additional observations from a re-analysis of the deposited data

Results flagged for a closer look

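Members were examined for outlying libraries in each genotype, leaving out groups that averaged under 10. The summed class I heavy chains and the 3 immunoproteasome ratios were examined as well. Of these 138 groups of 4 libraries, 8 held an outlying library. Its distance from the nearest of the others, divided by the range of the group, was above the 95% critical value of Dixon's test. About 1 group in 20 is expected to hold one by chance, or 6.9 groups here. In Pkd1-/- cells these were Stat2 at 486 in replicate 1 (the others 455 to 458), Ifi27 at 1584 in replicate 1 (1329 to 1367), Ifngr2 at 3040 in replicate 4 (3133 to 3141) and Oas1a at 66 in replicate 4 (93 to 98). In Pkd2-/- cells they were B2m at 11929 in replicate 4 (13515 to 13727), Irf1 at 1474 in replicate 2 (1750 to 1792) and Mx1 at 24 in replicate 4 (16 in each of the others). In Wt cells Irf2 stood at 1427 in replicate 3 (1678 to 1720).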

How the results depend on the processing

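Alternatives changed the pseudocount to 0.5 or 5, dropped the filter on low values or raised it to a mean of 10, fitted only the 2 genotypes compared, rescaled by the upper quartile, added voom weights, added the replicate number as a block or left out 1 library. Under the 8 alternatives with all libraries, 1026 of 1032 single-member values kept their direction and side of the threshold. Calls of H2-D1 without the filter and of Tmem173 with upper quartile rescaling were lost, and 4 uncalled values near 0 changed sign: under that rescaling Irf2 in Pkd1-/- against Wt cells (0.001) and Ifnar1 and Tmem173 in Pkd2-/- against Wt cells (-0.017 each), and with a pseudocount of 5 Psmb9 in Pkd2-/- against Wt cells (0.0). The count of members lower by 2-fold in Pkd2-/- cells went from 1 to 2 without the filter, by admitting H2-Ab1, and to 2 with upper quartile rescaling, which moved Ifngr1 past the line. That rescaling moved the median of all genes by at most 0.044 in size.

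Leaving out 1 library kept 1502 of 1548 values, with 22 calls lost, 4 gained and 20 changes of sign, each of a value that had not passed. Over the left-out libraries these values ranged, in Pkd1-/- against Wt cells, from -0.05 to 0.009 for H2-T23 and from -0.073 to 0.016 for Irf2. In Pkd2-/- against Wt cells the ranges were -0.018 to 0.037 for Ifnar1, -0.242 to 0.347 for Mx1, -0.089 to 0.123 for Psmb9 and -0.015 to 0.041 for Tmem173. Between the mutants they were -0.068 to 0.046 for Irf3 and -0.205 to 0.007 for Psmb9. The counts ranged from 24 to 28 members lower and 3 to 4 higher in Pkd1-/- cells, from 28 to 29 higher and 4 to 5 lower in Pkd2-/- cells, and from 1 to 2 lower by 2-fold in the latter. With the replicate number as a block, though the numbers do not pair the dishes (9 of 24 best matches had the same number), 129 of 129 values kept their call, such as 27 members lower in Pkd1-/- and 28 higher in Pkd2-/- cells. Limits are the single clone per mutant, genes such as Mx1, Oasl1 and Nlrc5 with few reads, and near copies among the Ifit, Oas, Gbp and heavy chain genes.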

Other observations

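Genes that lie near the members but are not of the pathway were examined within 500 kb where their mean normalized count was at least 10. Between H2-K1 and H2-T23 on chromosome 17 71 such genes were found, whose median log2 difference from Wt was 0.04 for Pkd1-/- and -0.06 for Pkd2-/- cells, while H2-K1, H2-D1, H2-T23, Tap2, Tap1, Psmb8 and Tapbp in and beside that interval rose in Pkd2-/- cells by 0.39 to 0.75. Psmb9, in the same interval, did not pass there (adjusted p = 1, limma). Around the Ifit genes the 8 neighbours had medians of -0.70 in Pkd1-/- and -0.78 in Pkd2-/- cells, and the 9 neighbours of B2m had medians of 0.12 and 0.48. The 2 neighbours of Ifngr1 had medians of -0.50 and -0.70, beside -0.43 and -0.98 for Ifngr1 itself. The 1 neighbour of Rsad2 outside the pathway had -4.99 and -3.11, beside -3.40 and 0.14 for Rsad2. The receptor genes Ifnar1, Ifnar2 and Ifngr2 stand together on chromosome 16, where the 15 to 17 neighbours had medians of -0.17 to -0.13 in Pkd1-/- and 0.02 to 0.04 in Pkd2-/- cells.

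Libraries of one genotype differed more in the 17 antiviral and guanylate-binding genes than in genes at large. The median coefficient of variation of these genes was 13.6% in Wt, 9.77% in Pkd1-/- and 10.5% in Pkd2-/- cells, beside 7.32, 6.48 and 7.69% over all genes, which include many with higher counts. Wt replicate 4 was the highest Wt library in 9 of the 17 and Wt replicate 2 the lowest in 9, and Pkd2-/- replicate 4 was the lowest of its genotype in 13. In Pkd1-/- cells 16 of the 17 were counted, since Mx1 was at 0 there.

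Some genes of the wider list were chosen here after their values were seen. Cd274, which encodes the checkpoint ligand PD-L1, had means of 90.8 in Wt, 73.2 in Pkd1-/- and 267 in Pkd2-/- cells, a log2 rise of 1.55 in the last (adjusted p = 2.66e-08, limma). Zbp1, a sensor of Z-form nucleic acids, had means of 25.0, 0.5 and 1.5, and fell in both mutants. Ifnlr1, a subunit of the type III interferon receptor, had means of 482, 329 and 684, and passed in opposite directions in the mutants, unlike the type I and type II receptor genes. Il10rb, a receptor gene listed with it, went the way of Ifnar1 and Ifnar2. It fell in Pkd1-/- cells (-0.67, adjusted p = 6.5e-08, limma) and did not pass in Pkd2-/- cells (0.1, adjusted p = 0.193, limma).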
